A study of Mus musculus with 4 samples.

Results

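The cells described here are luminal progenitors of control mouse mammary glands, split into an Ltf-type and a Cck-type by their own RNA counts. From the control (CTL) libraries, barcodes were kept that had over 500 detected genes and less than 20% of their UMIs (unique molecular identifiers, counted RNA molecules) from mitochondrial genes. Epithelial cells then needed at least 10 UMIs of Krt8 and Krt18 per 10000. Luminal progenitors were those with a higher mean log level of Elf5, Plet1, Ehf, Kit, Aldh1a3 and Csn3 than of Esr1, Foxa1, Pgr, Cited1, Prlr and Prom1. A cell was Ltf-type when its UMIs of Ltf, Alpl, Dclk1 and Muc15 outnumbered those of Cck, Igfbp5, Pdlim3 and Btn1a1, and Cck-type in the reverse case. This gave 5393 typed cells of the 18200 kept in the whole series, of which 585 were Ltf-type and 4808 Cck-type, and 94 progenitors with equal sums were dropped. The cells were thus chosen by the levels of 22 genes, which are given as a description with no test.

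The study profiled mammary cells after deletion of the Hippo kinases LATS1 and LATS2, with 4 single-cell libraries, each from 1 mouse. The 2 CTL mice carried floxed Lats1 and Lats2 alleles (Lats1f/f;Lats2f/f) and a heterozygous R26-lsl-EYFP reporter without Cre. They nevertheless received 2 mg tamoxifen in corn oil by intraperitoneal injection on 5 consecutive days, and glands were collected 7 days after the last dose. The 2 LATS1/2-KO mice had the same floxed alleles and treatment plus Krt8-CreERT2, whose keratin promoter drives recombination in luminal cells, with the reporter heterozygous in replicate 1 and homozygous in replicate 2. Mice were adult nulliparous females 3 to 10 months old. Live cells were sorted by Calcein Blue from gland pairs 3 to 5, after the lymph nodes of pair 4 had been taken out. The labels name no batch, and a CTL and a LATS1/2-KO mouse with the same replicate number are not a pair.

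Luminal progenitors are the hormone receptor-low cells of the mammary ducts, and they give rise to the alveolar cells that make milk during pregnancy and lactation. They also resemble other mucosal epithelia, since they make antimicrobial and iron-binding proteins such as lactoferrin, the product of Ltf. Prolactin acting through the transcription factor STAT5 is the classic inducer of casein genes in this lineage.

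CTL mouse 1 gave 5291 barcodes, of which 4914 were kept with a median of 7443.5 UMIs. CTL mouse 2 gave 3736 barcodes, of which 3515 were kept with a median of 10141 UMIs. The progenitor gate held 3188 and 2299 cells in mice 1 and 2. Of the typed cells, 326 in mouse 1 and 259 in mouse 2 were Ltf-type, against 2803 and 2005 Cck-type cells. The Ltf-type share was 10.4% in mouse 1 (exact 95% binomial interval 9.37 to 11.5) and 11.4% in mouse 2 (10.2 to 12.8), with a mean of 10.9% ± 0.722 (SD, n = 2). The intervals of the mice overlap, so no difference between them was detectable at this depth, and intervals cover counting error only. The libraries of the CTL mice shared 4 barcodes, and 2 barcodes were shared among the typed cells.

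The marker genes of progenitors took part in the choice of cells, so their levels are a description and no check of the label. Elf5, a transcription factor needed for alveolar differentiation, was at 220 and 237 CPM (UMIs of a gene per 1000000 UMIs, both summed over the cells of a type) in the Ltf-type cells of mice 1 and 2. In Cck-type cells Elf5 was at 222 and 293 CPM, and in CTL hormone-sensing cells, which pass the same epithelial gate with the reverse score, at 14.2 and 15.2 CPM. The gap between progenitors and hormone-sensing cells follows from the rule. Plet1, a surface protein of this lineage, was at 3726 and 3501 CPM in Ltf-type cells, 4866 and 4454 in Cck-type cells and 356 and 268 in hormone-sensing cells. Among the other score genes, Aldh1a3, a retinaldehyde dehydrogenase, was at 573 and 647 CPM in Ltf-type and 339 and 327 in Cck-type cells. Csn3, the gene of kappa-casein, was at 560 and 1640 CPM in Ltf-type and 2317 and 3807 in Cck-type cells. Aldh1a3 was thus the higher in Ltf-type and Csn3 the higher in Cck-type cells of each mouse, and both took part in the choice of cells.

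The type labels rest mostly on Ltf and Igfbp5. Ltf, which encodes the iron-binding milk and mucosal protein lactoferrin, was at 2107 and 3846 CPM in Ltf-type cells and 168 and 326 CPM in Cck-type cells. It made up 68.8% and 81.5% of the UMIs of its gene set in Ltf-type cells. Igfbp5, a secreted binding protein for insulin-like growth factors, was at 887 and 1289 CPM in Ltf-type cells and 3593 and 4053 CPM in Cck-type cells. It held 77.3% and 77.7% of the UMIs of its set in Cck-type cells. Cck, the gene of the peptide hormone cholecystokinin, held 10.5% and 12.3%. Its level was 490 and 642 CPM in Cck-type cells and 152 and 250 CPM in Ltf-type cells, so the gene that gives the Cck-type its name was a small part of what chose it. A gate without Igfbp5, tried after this composition was seen, made 44.3% of typed cells Ltf-type.

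The other gate genes also differed in the direction of the gate. Alpl, the tissue-nonspecific alkaline phosphatase, was at 132 and 159 CPM in Ltf-type and 65.6 and 85.3 CPM in Cck-type cells. Dclk1, a microtubule-associated kinase, was at 293 and 177 against 98.8 and 59.5 CPM, and so varied between the mice in both types. Muc15, a membrane mucin, was at 530 and 538 CPM in Ltf-type and 396 and 439 CPM in Cck-type cells. Pdlim3, a PDZ and LIM domain protein, was at 194 and 178 CPM in Ltf-type and 308 and 278 CPM in Cck-type cells. Btn1a1, the milk fat globule protein butyrophilin, was at 151 and 190 against 256 and 244 CPM. When each gate gene was left out of the gate in turn, it kept its direction between the types in both mice. Muc15 was then at 454 and 489 CPM in Ltf-type and 407 and 448 CPM in Cck-type cells, the smallest of these ratios in both mice. All gate genes were given together by the rule, so these values describe the gate and are no test of the split.

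Ltf and Cck did not divide the cells between them. At 2000 UMIs per cell, 246 progenitors of mouse 1 held UMIs of both genes, 385 of Ltf alone, 1138 of Cck alone and 1280 of neither. In mouse 2 these counts were 322, 351, 872 and 699. Cells with Ltf had Cck in 39% of cases in mouse 1 and 47.8% in mouse 2, and cells without Ltf in 47.1% and 55.5%. At this depth the share with Cck was thus lower in cells with Ltf in both mice. With all UMIs the shares lay closer together, at 71.3% and 77.9% with Ltf against 69.9% and 76.7% without it. A split by Ltf and Alpl against Cck and Igfbp5 was also compared with the other 4 gate genes, Dclk1 and Muc15 against Pdlim3 and Btn1a1. Those genes put 76.3% and 71.2% of the Ltf-type cells of that split on the Ltf side, but also 47.2% and 50.1% of its Cck-type cells. Both sets of genes belong to the rule, so the comparison is a description and no test of the types.

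Free RNA reached other cells at a lower share. CTL immune cells, which should lack these genes, numbered 163 in mouse 1 and 78 in mouse 2, with median depths of 2885 and 3135.5 UMIs. Ltf was found in 0 and 3.85% of them, against 77.6% and 92.3% of Ltf-type cells (median depths 6461.5 and 7292 UMIs) and 28.7% and 39.5% of Cck-type cells (7123 and 8638 UMIs). Cck was found in 1.84% and 1.28% of immune cells, 45.4% and 57.5% of Ltf-type and 74.1% and 80.6% of Cck-type cells. Igfbp5 was found in 16.6% and 12.8% of immune cells, and in 85.0% and 88.0% of Ltf-type and 99.6% and 99.8% of Cck-type cells. Within a type, Ltf was spread unevenly. The tenth of Ltf-type cells with the highest counts held 44.2% and 37.7% of its UMIs, and 73 of the 326 and 20 of the 259 Ltf-type cells had none.

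Most cells lay at low shares of the Ltf set. The share of gate UMIs that came from the Ltf set was under 10% in 1211 cells of mouse 1 and 856 of mouse 2, and at least 90% in 42 and 34 cells. No step of 5% was empty. The step just under 50% held 62 cells in each mouse, and the step from 50% up held 82 and 53, of which 49 and 29 were ties at equal sums. In mouse 1, 67 Ltf-type and 130 Cck-type cells lay within 2 UMIs of equality, with median sums of 5 against 4 and 4 against 6 UMIs of the Ltf and Cck sets. In mouse 2 they were 32 Ltf-type and 60 Cck-type cells, with medians of 6 against 5 and 7 against 8. With ties, these cells made up 8.03% and 5.52% of the progenitors. After thinning to 2000 UMIs, 241 of 313 and 208 of 254 Ltf-type cells kept their type, as did 2472 of 2687 and 1821 of 1961 Cck-type cells.

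**Figure D1:**
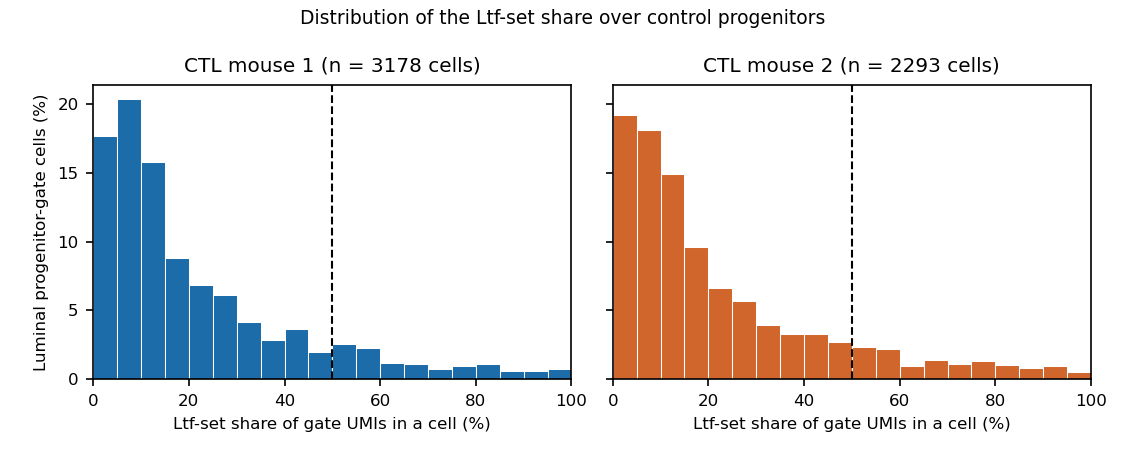
Percent of the CTL luminal progenitors (y axis) by the share of their gate UMIs that came from Ltf, Alpl, Dclk1 and Muc15 (x axis, percent), for each mouse (3178 and 2293 cells with any gate UMI). The dashed line marks equal sums, with Cck-type cells to its left. Ltf-type cells lie to its right, where the first bar also holds 49 and 29 ties that belong to neither type.

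Depth and mitochondrial share differed little between the types. Cck-type cells had the higher median UMIs in both mice (given above with the shares). The median mitochondrial share was 4.12% and 3.69% in Ltf-type and 4.03% and 3.73% in Cck-type cells. The summed RNA behind each comparison was 2783416 and 2540069 UMIs for Ltf-type and 26503501 and 22306225 UMIs for Cck-type cells. The part of depth in the differences described here was not tested, apart from the thinned sums and cells named in the limits.

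Many genes outside the gate differed between the types in both mice. RNA was summed per mouse and type, and Ltf-type sums were compared with Cck-type sums within each mouse. Of 12100 genes tested, 634 were higher in Ltf-type cells (5.24%) and 562 in Cck-type cells (4.64%) at an adjusted p under 0.05 by edgeR's quasi-likelihood test with Benjamini-Hochberg adjustment. Differences of at least 2-fold were found for 190 genes higher in Ltf-type (1.57%) and 122 higher in Cck-type cells (1.01%). In 631 of the 634 and 560 of the 562 the levels differed the same way in both mice, and without the genes of the rule 630 and 560 of 12086 genes were called. The median log2 fold change (Ltf-type over Cck-type, the direction of every fold change here) was 0.00.

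These counts depend on how the spread is estimated, since the 4 sums leave 1 residual degree of freedom and the test borrows spread across genes. DESeq2 called 192 and 149 genes (1.59% and 1.23% of those tested), the fit with no replicate block 128 and 97 (1.06% and 0.802%), and a fit with hormone-sensing cells as an added class 236 and 200 (1.79% and 1.51%). Each of the 1196 called genes had the same direction in those 3 fits, which use the same Ltf-type and Cck-type sums and so nearly fix it. In settings that change the cells some called genes reversed. In cells thinned to 2000 UMIs, 511 of the 533 Ltf-type and 494 of the 516 Cck-type genes still tested kept their direction. With a gate without Ltf and Cck these were 608 of 625 and 548 of 561.

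Tac1 and Cpe had the largest differences among the genes higher in Ltf-type cells that reached 50 CPM there in both mice, and less abundant genes such as Sostdc1 had larger ones. Tac1, which encodes the precursor of the neuropeptide substance P, was at 82.3 and 75.6 CPM in the Ltf-type cells of mice 1 and 2 and at 15.8 and 9.73 CPM in Cck-type cells (log2 fold change 2.61 ± 0.12, SE, n = 2 mice). Cpe, a carboxypeptidase that trims peptide hormones, was at 50.7 and 62.6 CPM against 10.4 and 8.83 CPM (2.53 ± 0.14). Both genes were higher in each Ltf-type sum than in any Cck-type sum. Tac1 was found in 25.2% and 27.4% of Ltf-type and 6.74% and 6.18% of Cck-type cells, so most Ltf-type cells gave no UMI of it. Of the 7 tested genes of the list of neuropeptide and serotonin genes, 1 was called, which was Cpe, and the list's median log2 fold change was -0.11.

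Crip1 combined a large difference with a high level. This gene of a small LIM domain protein was at 845 and 1049 CPM in Ltf-type cells and 167 and 218 CPM in Cck-type cells. Ltf-type cells thus exceeded Cck-type cells by a log2 fold change of 2.29 ± 0.05 (SE, n = 2 mice), and edgeR's quasi-likelihood test with Benjamini-Hochberg adjustment gave an adjusted p of 8.60e-21. The levels did not overlap, and Crip1 was found in 74.8% and 76.1% of Ltf-type but 36.3% and 42.9% of Cck-type cells. Wfdc18, a whey acidic protein-type secreted protein, was the most abundant of the leading genes. It was at 6778 and 7802 CPM in Ltf-type cells and 2322 and 2963 CPM in Cck-type cells (1.46 ± 0.07).

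Tppp3, Csf3, Pkp1 and Adamts1 were also among the 12 leading genes. Tppp3, a tubulin polymerization-promoting protein, was at 97.4 and 104 CPM in Ltf-type and 22.5 and 22.9 CPM in Cck-type cells (2.13 ± 0.09). Csf3, the cytokine that stimulates granulocyte production, was at 208 and 202 CPM in Ltf-type and 63.5 and 49.6 CPM in Cck-type cells (1.85 ± 0.07). A single Ltf-type cell held 23.6% of the Csf3 UMIs of its sum. Pkp1, the desmosomal plaque protein plakophilin 1, was at 69.3 and 54.7 CPM in Ltf-type and 17.6 and 19.1 CPM in Cck-type cells (1.75 ± 0.12). Adamts1, a secreted protease of the extracellular matrix, was at 87.3 and 88.2 against 26.8 and 30.2 CPM (1.61 ± 0.09). For each of these genes the lowest Ltf-type sum lay above the highest Cck-type sum.

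The remaining leaders were Osbpl3, Anxa3, Lgals3 and Fxyd2. Osbpl3, an oxysterol-binding protein relative, was at 85.9 and 61.0 CPM in Ltf-type and 26.6 and 16.5 CPM in Cck-type cells (1.76 ± 0.10). Anxa3, a calcium-dependent phospholipid-binding annexin, was at 71.1 and 94.1 against 25.8 and 30.2 CPM (1.54 ± 0.09). Lgals3, the galactoside-binding lectin galectin-3, was at 618 and 680 against 220 and 257 CPM (1.43 ± 0.05). Fxyd2, a regulatory subunit of the sodium pump, differed from the rest in its spread. It was at 116 and 208 CPM in Ltf-type and 70.0 and 48.1 CPM in Cck-type cells (1.43 ± 0.15), with a log2 fold change of 0.73 in mouse 1 and 2.09 in mouse 2. A single cell held 18.6% of the Fxyd2 UMIs of its sum, DESeq2 did not call it (adjusted p = 0.432 with Benjamini-Hochberg adjustment, against 1.39e-07 by edgeR's quasi-likelihood test), and hormone-sensing cells held it at 1196 and 804 CPM.

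In Cck-type cells the leading genes included a long noncoding RNA and secreted proteins. C530043A13Rik, a long intergenic noncoding RNA on chromosome 1 (GRCm38, 73522095 to 73529790, minus strand), was at 7.90 and 7.87 CPM in Ltf-type cells and 58.9 and 66.0 CPM in Cck-type cells (log2 fold change -2.99 ± 0.15, SE, n = 2 mice). Chil1, a secreted chitinase-like protein, was at 18.3 and 29.1 CPM in Ltf-type and 122 and 185 CPM in Cck-type cells (-2.71 ± 0.10). Trf, the iron carrier transferrin, was at 383 and 609 CPM in Ltf-type and 1484 and 1906 CPM in Cck-type cells. The fold change of Trf was -1.81 ± 0.06 on the log2 scale, and edgeR's quasi-likelihood test with Benjamini-Hochberg adjustment gave an adjusted p of 5.89e-17.

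Apoe, Lipa and Fabp5 followed among the leaders of the Cck-type. Apoe, the lipid carrier apolipoprotein E, was at 51.7 and 64.2 CPM in Ltf-type and 201 and 196 CPM in Cck-type cells (-1.79 ± 0.08). Lipa, the lysosomal acid lipase, was at 52.1 and 33.5 against 107 and 99.3 CPM (-1.28 ± 0.10). Both were higher in each Cck-type sum than in any Ltf-type sum. Fabp5, a fatty acid-binding protein, was at 71.9 and 42.1 CPM in Ltf-type and 149 and 124 CPM in Cck-type cells (-1.27 ± 0.09).

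Dusp5 and Errfi1 were the most abundant of the others. Dusp5, a nuclear phosphatase of ERK kinases, was at 226 and 246 CPM in Ltf-type and 643 and 621 CPM in Cck-type cells (-1.44 ± 0.06). Errfi1, a feedback inhibitor of the EGF receptor, was at 337 and 319 against 793 and 712 CPM (-1.21 ± 0.06). These genes varied little between the mice. Scnn1b, a subunit of the epithelial sodium channel, was at 16.9 and 27.6 CPM in Ltf-type and 50.5 and 58.7 CPM in Cck-type cells (-1.32 ± 0.12). Pdzk1ip1, a small membrane protein, was at 41.3 and 61.0 against 102 and 157 CPM (-1.35 ± 0.08). Gm13889, a predicted protein-coding gene, was at 28.0 and 26.8 against 107 and 88.3 CPM (-1.85 ± 0.10). The 12 leaders of the Ltf-type and the 11 given for the Cck-type were taken from the largest differences among the 283 and 291 called genes that differed the same way in both mice and reached 50 CPM in the higher type. All 23 kept their direction under each alternative processing, and all but Fxyd2 also their call. Fxyd2 lost it with DESeq2, in cells thinned to 2000 UMIs, with a wider margin at the gate and with a gate without Ltf and Cck.

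**Figure D2:**
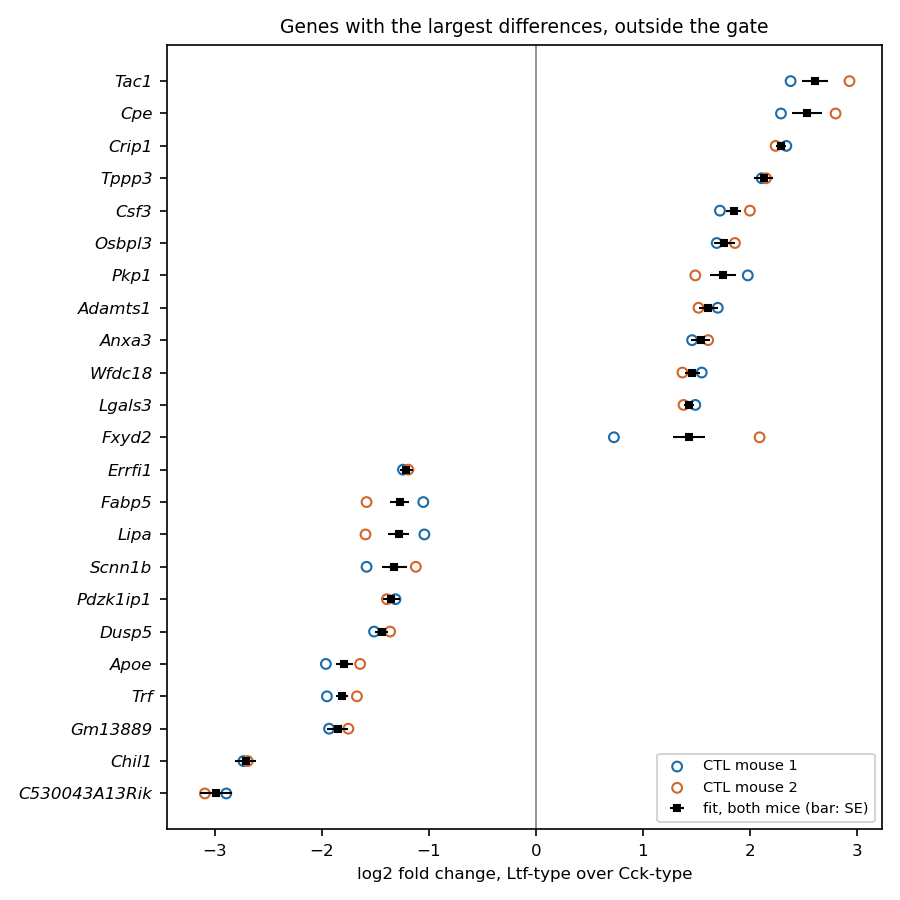
Log2 fold change (x axis, Ltf-type over Cck-type) of 12 leading genes of the Ltf-type and 11 of the Cck-type (y axis). Open circles are the CTL mice, squares the fitted value with its standard error, and Fxyd2 shows the widest gap between the mice among the Ltf-type leaders.

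Milk protein genes were mostly higher in Cck-type cells. Of 14 tested genes of the list of milk protein and milk fat globule genes, 9 were higher in Cck-type and 2 in Ltf-type cells, with a median log2 fold change of -1.13 against 0.00 over all genes. DESeq2 called 5 and 2 of them. Here and in the lists that follow, the shares called among all genes were 5.24% higher in Ltf-type and 4.64% in Cck-type cells, and no list was tested against them or against another list. Csn2, the gene of beta-casein, had 1 UMI in Ltf-type cells of the 2 mice together and 786 in Cck-type cells. Its level in Cck-type cells was 85.7 times that in Ltf-type cells, with a counting interval of 15.3 to 3390. Csn1s1, an alpha-casein gene, had 7 and 0 UMIs in the Ltf-type cells of mice 1 and 2 and 542 and 246 in Cck-type cells, and DESeq2 did not call it (adjusted p = 0.281 with Benjamini-Hochberg adjustment, against 8.05e-08 by edgeR's quasi-likelihood test). Few Cck-type cells carried these RNAs, with Csn2 in 3.18% and 3.44% of them and Csn1s1 in 3.1% and 3.14%. Both caseins were thus detected in a small part of the Cck-type cells.

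Spp1, the secreted phosphoprotein osteopontin, differed widely in level between the mice. It was at 0.719 and 6.69 CPM in Ltf-type and 24.8 and 318 CPM in Cck-type cells (log2 fold change -5.55 ± 0.15, SE, n = 2 mice). The log2 ratio was alike in the mice, with -5.09 in mouse 1 and -5.60 in mouse 2, while the level was not. These ratios rest on few counts, since the Ltf-type sums held 2 and 17 UMIs of Spp1. It was found in 2.93% and 18.5% of Cck-type cells. The fit with no replicate block did not call Spp1 (adjusted p = 0.126 with Benjamini-Hochberg adjustment, against 1.12e-19 by edgeR's quasi-likelihood test with the block). Wfdc18, described above, also belongs to the milk list and was higher in Ltf-type cells (1.46 ± 0.07). Mfge8, the milk fat globule protein lactadherin, went the same way as Wfdc18 by a small amount. It was at 2834 and 3361 CPM in Ltf-type and 2371 and 2756 CPM in Cck-type cells (0.26 ± 0.06) and was not called with no replicate block or with the added class.

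Most tested cytokine and chemokine genes were higher in Ltf-type cells. Of 13 tested genes of that list, 10 were higher in Ltf-type and 0 in Cck-type cells, and the list's median log2 fold change was 0.75. At an unadjusted p under 0.05 the test also found 0 of them higher in Cck-type cells, and DESeq2 called 7 and 0. With no replicate block 2 were called. Cxcl1, a neutrophil-attracting chemokine, was at 405 and 502 CPM in Ltf-type and 195 and 225 CPM in Cck-type cells (1.09 ± 0.05). Cxcl2, which acts on the same receptor, was at 177 and 234 CPM in Ltf-type and 63.6 and 110 CPM in Cck-type cells (1.26 ± 0.07). Both were higher in each Ltf-type sum than in any Cck-type sum, as was Csf3. A single cell held 18.3% of the Cxcl2 UMIs of its sum, and the fit with no replicate block gave Cxcl2 an adjusted p of 0.0543 (edgeR's quasi-likelihood test with Benjamini-Hochberg adjustment).

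Mucosal defence genes leaned to the Cck-type, although lactoferrin defines the other. Of 15 tested genes of the list, 9 were higher in Cck-type and 2 in Ltf-type cells (median log2 fold change -0.49), and by DESeq2 8 and 1. Besides Chil1, Lbp was among them, a secreted protein that binds bacterial lipopolysaccharide. It was at 2.51 and 4.72 CPM in Ltf-type and 13.1 and 17.4 CPM in Cck-type cells (-2.10 ± 0.27). Lrg1, a secreted leucine-rich glycoprotein, was at 94.1 and 176 against 240 and 346 CPM (-1.15 ± 0.07) and was not called with no replicate block. Wfdc2, a protease inhibitor-type secreted protein, was higher in Ltf-type cells, at 206 and 523 CPM against 144 and 260 CPM (0.78 ± 0.07). A single cell held 20% of its UMIs in a sum, hormone-sensing cells held it at 2280 and 3003 CPM, and it was not called with no replicate block.

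Genes that mark luminal progenitors were split between the types. Of 12 tested genes of this list outside the rule, 6 were higher in Cck-type and 2 in Ltf-type cells (median -0.16), and by DESeq2 4 and 2. Cd14, the lipopolysaccharide co-receptor used to sort these cells, was at 313 and 303 CPM in Ltf-type and 423 and 437 CPM in Cck-type cells (-0.49 ± 0.06). Hey1, a transcriptional repressor downstream of Notch, was at 28.0 and 32.3 against 42.3 and 61.1 CPM (-0.78 ± 0.11). Gabrp, a subunit of the GABA-A receptor, was higher in Ltf-type cells, at 21.6 and 32.7 CPM against 8.72 and 14.6 CPM (1.21 ± 0.16). Hey1 and Gabrp were not called with no replicate block. In the Notch list 2 of 12 tested genes were higher in Cck-type and 0 in Ltf-type cells (median -0.25), and by DESeq2 1. They were Hey1 and the receptor Notch1, at 135 and 163 CPM in Ltf-type and 165 and 193 CPM in Cck-type cells (-0.28 ± 0.06), which DESeq2 did not call.

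Transcription factors showed no common direction. Of 45 tested genes of the list of mammary transcription factors, 7 were higher in each type (median -0.02), and by DESeq2 6 in Ltf-type and 3 in Cck-type cells. Elf3, an epithelial ETS factor, was at 243 and 279 CPM in Ltf-type and 158 and 175 CPM in Cck-type cells (0.64 ± 0.06). Bhlhe41, a basic helix-loop-helix repressor of the circadian clock, was at 99.2 and 119 against 53.4 and 63.6 CPM (0.88 ± 0.07). Barx2, a homeodomain factor, was at 258 and 212 against 159 and 130 CPM (0.69 ± 0.06) and had an adjusted p of 0.0545 with no replicate block (edgeR's quasi-likelihood test with Benjamini-Hochberg adjustment). These 3 were found in hormone-sensing cells at 98.6 and 150, 126 and 114, and 15.3 and 13.1 CPM. Rora, a nuclear receptor, was the other way at 78.3 and 79.9 CPM in Ltf-type and 105 and 103 CPM in Cck-type cells (-0.41 ± 0.07), and DESeq2 did not call it.

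Lists of paracrine signals gave mixed counts. In the WNT list 5 of 22 tested genes were higher in Ltf-type and 0 in Cck-type cells (median 0.29), and by DESeq2 2 and 0. Sostdc1, a secreted antagonist of WNT and BMP signals, was at 18.7 and 25.2 CPM in Ltf-type and 3.77 and 3.05 CPM in Cck-type cells (2.65 ± 0.22). The ligand Wnt7b was at 47.1 and 48.8 against 23.7 and 28.9 CPM (0.86 ± 0.11). Sostdc1 thus showed a fold change as large as that of Tac1 at a lower level. In the EGF family list 3 of 10 were higher in Ltf-type and 1 in Cck-type cells (median 0.16), the latter being the ligand Hbegf, and by DESeq2 2 and 0. It was at 310 and 319 CPM in Ltf-type and 358 and 388 CPM in Cck-type cells (-0.26 ± 0.06), which DESeq2 did not call. In the TGF-beta and BMP list 2 of 22 were higher in Ltf-type and 4 in Cck-type cells (median -0.02), and by DESeq2 0 and 1. Smad7, an inhibitory SMAD, was at 133 and 87.8 against 174 and 130 CPM (-0.48 ± 0.07) and was not called with no replicate block or with the added class.

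Lists of prolactin, growth factor and YAP/TAZ genes were counted next. In the prolactin and STAT list 2 of 12 tested genes were higher in Ltf-type and 3 in Cck-type cells (median 0.02), and by DESeq2 0 and 2. Stat3, a transcription factor of cytokine signalling, was at 310 and 252 CPM in Ltf-type and 394 and 319 CPM in Cck-type cells (-0.36 ± 0.06), and was not called with no replicate block. Cish (0.38 ± 0.08) and Socs3 (0.36 ± 0.07) were higher in Ltf-type cells, and DESeq2 called neither. Stat5a and Stat5b were not called, with log2 fold changes of -0.01 and 0.04. In the insulin-like growth factor list 1 of 9, the receptor substrate Irs2, was higher in Cck-type cells (median -0.15). It was at 80.5 and 83.9 CPM in Ltf-type and 103 and 112 CPM in Cck-type cells (-0.40 ± 0.07), which DESeq2 did not call. Among YAP/TAZ targets, the genes that LATS kinases restrain, 4 of 17 were higher in Ltf-type and 5 in Cck-type cells (median -0.13), and by DESeq2 1 and 3. Cyr61, a matricellular target, was at 418 and 421 CPM in Ltf-type and 704 and 670 CPM in Cck-type cells (-0.72 ± 0.05). Myof, a membrane repair protein, was at 44.2 and 41.3 against 24.4 and 22.4 CPM (0.86 ± 0.11), the other way from Cyr61.

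Metabolic lists had calls in both types. Of 22 tested lipid synthesis and uptake genes, 7 were higher in Cck-type and 2 in Ltf-type cells (median -0.03), and by DESeq2 1 and 0. Srebf1, a transcription factor of fatty acid synthesis, was at 38.8 and 34.6 CPM in Ltf-type and 50.4 and 63.9 CPM in Cck-type cells (-0.64 ± 0.11), and DESeq2 did not call it. Of 20 metallothionein and antioxidant genes, 5 were higher in Cck-type and 1 in Ltf-type cells (median -0.12), and by DESeq2 2 and 0. Srxn1 and Nqo1, redox enzymes, were called in each of the other fits. Srxn1 was at 41.3 and 45.3 CPM in Ltf-type and 92.6 and 82.4 CPM in Cck-type cells (-1.03 ± 0.09). Nqo1 was at 48.9 and 44.9 against 80.6 and 87.8 CPM (-0.85 ± 0.09). Of 15 glycolysis and hypoxia genes, 2 were higher in each type (median -0.06), and by DESeq2 1, in Cck-type cells.

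Secretory and transport lists were counted in the same way. Of 16 endoplasmic reticulum and secretion genes, 5 were higher in Cck-type and 0 in Ltf-type cells (median -0.09), and by DESeq2 1 and 0. Herpud1, a gene of protein quality control in that organelle, was at 35.6 and 35.4 CPM in Ltf-type and 54.6 and 55.2 CPM in Cck-type cells (-0.64 ± 0.10), with an adjusted p of 0.0604 by DESeq2 with Benjamini-Hochberg adjustment against 4.18e-05 by edgeR's quasi-likelihood test. Of 12 ion, water and solute transport genes, 3 were higher in Cck-type and 2 in Ltf-type cells (median -0.21), and by DESeq2 2 and 1. The water channel Aqp1 had 2 UMIs in Ltf-type and 604 in Cck-type cells of the 2 mice, a ratio of levels of 32.9 (counting interval 9.08 to 273). Slc5a8, a sodium-coupled monocarboxylate transporter, was higher in Ltf-type cells, at 94.1 and 63.4 CPM against 39.5 and 34.8 CPM (1.07 ± 0.10). DESeq2 did not call Aqp1 (adjusted p = 0.0564 with Benjamini-Hochberg adjustment, against 7.93e-08 by edgeR's quasi-likelihood test).

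Keratins and junction genes had 4 calls each. Of 10 tested keratins outside the rule, 3 were higher in Ltf-type and 1 in Cck-type cells (median 0.04), and by DESeq2 3 and 0. Krt19 was at 2549 and 2540 CPM in Ltf-type and 1427 and 1453 CPM in Cck-type cells (0.81 ± 0.06). Krt7 was at 152 and 187 against 87.8 and 101 CPM (0.83 ± 0.06). Both are keratins of simple epithelia and were also found in hormone-sensing cells, Krt19 at 7841 and 4737 CPM and Krt7 at 448 and 448 CPM. Of 18 tight junction and cadherin genes, 3 were higher in Ltf-type and 1 in Cck-type cells (median 0.06), and by DESeq2 1 and 0. Cldn3, a claudin, was at 1161 and 1248 against 996 and 1087 CPM (0.20 ± 0.05) and was not called with no replicate block or with the added class.

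Interferon and antigen presentation genes had no common direction. Of 20 interferon response and MHC class I genes, 3 were higher in Ltf-type and 4 in Cck-type cells (median -0.11), and by DESeq2 2 in each. Ifitm3, an antiviral membrane protein, was at 334 and 365 CPM in Ltf-type and 163 and 136 CPM in Cck-type cells (1.21 ± 0.07). H2-K1, an MHC class I heavy chain, was at 2051 and 1274 against 2681 and 1667 CPM (-0.40 ± 0.06) and was not called with no replicate block or with the added class. Ifitm3 thus moved alone by over 2-fold among the named genes of this list. Of 6 tested MHC class II presentation genes, 1 was higher in Ltf-type and 0 in Cck-type cells (median 0.21), and DESeq2 called none. That gene was Cd74, at 60.4 and 9.84 CPM in Ltf-type and 26.0 and 10.4 CPM in Cck-type cells, and so higher in mouse 1 only.

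Immediate early and dissociation genes, which handling of tissue can raise, were often higher in Ltf-type cells. Of 26 tested genes, 13 were higher in Ltf-type and 2 in Cck-type cells (median 0.19), and by DESeq2 10 and 2. With hormone-sensing cells as the added class these counts were 5 and 1, and with no replicate block 3 and 0. Hspb1, a small heat shock protein, was at 1668 and 1771 CPM in Ltf-type and 808 and 750 CPM in Cck-type cells (1.13 ± 0.06). Dusp1, a phosphatase of stress-activated kinases, was at 238 and 298 against 150 and 172 CPM (0.72 ± 0.06). Btg2, an antiproliferative early gene, went the other way at 440 and 522 against 630 and 665 CPM (-0.45 ± 0.06) and was not called with no replicate block. The part of handling in the cytokine and other differences was not tested.

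Calls of cell cycle genes varied between the fits. Of 18 tested genes, 8 were higher in Ltf-type and 0 in Cck-type cells (median 0.50), by DESeq2 2 and 0, with no replicate block 3 and 0, and with hormone-sensing cells as the added class 0 and 0. Cenpf, a kinetochore protein of dividing cells, was at 11.5 and 28.0 CPM in Ltf-type and 3.02 and 2.11 CPM in Cck-type cells (2.87 ± 0.29). A single cell held 66.2% of its UMIs in a sum, and with hormone-sensing cells as the added class its adjusted p was 0.104 (edgeR's quasi-likelihood test with Benjamini-Hochberg adjustment). Cells with at least 5 UMIs over 10 mitotic genes, a limit chosen after the values were seen, numbered 5 of 326 and 5 of 259 Ltf-type cells. Among Cck-type cells they numbered 10 of 2803 and 6 of 2005. Those few cells held 68.8% and 92.5% of the UMIs of these genes in the Ltf-type sums. They were picked by the same UMIs, so their part in the difference was not tested.

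Markers of other lineages moved with some of these results. The 5 hormone-sensing markers summed to 269 and 273 CPM in Ltf-type and 166 and 167 CPM in Cck-type cells, with Tnfsf11 at 0 in Ltf-type cells. The hormone-sensing score has 6 other genes. In CPM, Foxa1, Pgr, Prlr and Prom1 were higher in Ltf-type cells of both mice, and Esr1 and Cited1 in mouse 2 only. Prlr was at 322 and 392 CPM in Ltf-type and 286 and 304 CPM in Cck-type cells. By share of cells with any UMI at full depth, these genes were mixed. Pgr was found in 8.59% and 10.4% of Ltf-type and 7.99% and 8.58% of Cck-type cells. Prlr was found in 41.7% and 35.9% against 48.2% and 51.9%. Esr1 went the way of Prlr, and Foxa1, Cited1 and Prom1 differed in direction between the mice. In cells thinned to 2000 UMIs, Pgr was in 2.88% and 3.15% against 2.27% and 1.99%. Prlr was then in 17.9% and 16.9% against 20.4% and 20.9%. Cells with 2 or more UMIs of the 6 score genes made up 21.2% and 21.2% of the Ltf-type. The share was 29.6% and 31.4% in Cck-type and 3.07% and 3.85% in immune cells. Median depths were 6461.5 and 7292 UMIs in Ltf-type, 7123 and 8638 in Cck-type and 2885 and 3135.5 in immune cells. The part of depth in the summed share was not tested. Of the 4 tested hormone-sensing markers, 3 were higher in Ltf-type and 0 in Cck-type cells (median 0.73), and by DESeq2 2 and 0. With no replicate block these counts were 0 and 0. Areg, an EGF receptor ligand made by hormone-sensing cells, was at 153 and 82.3 CPM in Ltf-type, 76.7 and 48.5 CPM in Cck-type and 1179 and 637 CPM in hormone-sensing cells (0.89 ± 0.08), and 36.8% of the UMIs of a sum came from a single cell. Among progenitors with 0 UMIs of Esr1, Foxa1, Pgr and Cited1 the log2 fold change of Areg was 0.59 (adjusted p = 0.165 by edgeR's quasi-likelihood test with Benjamini-Hochberg adjustment). That of Ly6a was 0.10 and that of Wnt4 0.19 among these cells, and neither was called. Crip1 and Csf3 held their differences there, with log2 fold changes of 2.53 and 2.11. With possible doublets removed instead, the log2 fold change of Areg was 1.53 (adjusted p = 1.11e-06) and that of Wnt4 0.39 (adjusted p = 0.0180, both by edgeR's quasi-likelihood test with Benjamini-Hochberg adjustment), and that of Ly6a was 0.30 and not called. That filter counts basal, fibroblast, endothelial and immune markers but none of hormone-sensing cells.

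Fxyd2, Wfdc2, Krt7 and Krt19, which hormone-sensing cells also held, were compared in the same settings. Among progenitors with 0 UMIs of Esr1, Foxa1, Pgr and Cited1 the log2 fold change of Fxyd2 was 0.90 (adjusted p = 0.00709 by edgeR's quasi-likelihood test with Benjamini-Hochberg adjustment), against 1.43 among all, and those of Wfdc2, Krt7 and Krt19 were 0.86, 1.07 and 1.07. With possible doublets removed that of Fxyd2 was 1.06, and those of Wfdc2, Krt7 and Krt19 were 1.39, 0.89 and 0.99. All were called in both settings. The filter on possible doublets counts no hormone-sensing marker, and how much hormone-sensing RNA took part in these differences was not measured.

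Summed fibroblast markers were higher in Cck-type cells. The 6 markers summed to 11.5 and 48.4 CPM in Ltf-type and 62.5 and 86.2 CPM in Cck-type cells, with Lum at 0 in Ltf-type cells, and 5 of 6 were called higher in Cck-type cells (median -2.31), of which DESeq2 called none. Cells with 2 or more UMIs of these markers made up 0.307% of Ltf-type and 1.57% of Cck-type cells in mouse 1, but 5.02% and 4.19% in mouse 2, so the mice differed in direction. Dcn, a matrix proteoglycan and their most abundant gene, was at 5.39 and 46.1 CPM in Ltf-type and 32.1 and 78.3 CPM in Cck-type cells. Its log2 fold change was -2.57 in mouse 1 and -0.79 in mouse 2. With possible doublets removed, a filter that counts Dcn itself, its log2 fold change was 0.03, which therefore shows no source. The log2 fold changes of Trf and Chil1, which the filter does not count, were -1.82 and -2.79 in that setting.

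Markers of other lineages were also summed. The 9 basal markers summed to 59.6 and 85.4 CPM in Ltf-type and 82.1 and 93.7 CPM in Cck-type cells, with Tagln the most abundant, and 1 of 9 was called, higher in Cck-type cells (median -0.53), but not by DESeq2. That gene was Acta2, smooth muscle actin, at 8.26 and 17.3 CPM in Ltf-type and 19.3 and 26.2 CPM in Cck-type cells, and the filter on possible doublets, which counts Acta2 itself, left it at a log2 fold change of 0.01. Immune markers summed to 7.90 and 7.87 against 11.9 and 16.6 CPM, with Cd3e, Cd3g, Nkg7, Csf1r and Adgre1 among those at 0 in Ltf-type cells, and 0 of 4 tested were called (median -0.83). Endothelial markers summed to 8.26 and 2.76 against 9.47 and 6.46 CPM, with Cdh5, Kdr, Tie1 and Cldn5 at 0 in Ltf-type cells, and 0 of 1 was called (median -0.24). Perivascular markers summed to 43.5 and 45.7 against 48.7 and 50.9 CPM, nearly all from Notch3, and 0 of 1 was called (median -0.19). Adipocyte markers were at 0 in Ltf-type cells and summed to 0.868 and 1.08 CPM in Cck-type cells, and none passed the filter on low counts. At an unadjusted p under 0.05, edgeR and its quasi-likelihood test found 0 immune, 0 endothelial and 0 perivascular markers to differ, and DESeq2 also called 0.

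Levels of the leading genes also differed along the gate within a type. Progenitors were divided into 6 bands by the share of gate UMIs from the Ltf set, with limits at 10%, 30%, 50%, 70% and 90% chosen after values were seen, and the bands support no test. Crip1 in mouse 1 was at 58.2 CPM in the lowest band, then 170 and 453 CPM in the other bands of Cck-type cells, and 711, 987 and 1112 CPM in the bands from 50% up. The fourth band holds 49 and 29 ties besides Ltf-type cells. In mouse 2 Crip1 was at 66.6, 244 and 519 CPM and then 776, 1226 and 1655 CPM. Trf ran the other way, from 1938 CPM in the lowest band to 174 CPM in the highest in mouse 1 and from 2430 to 338 CPM in mouse 2. All 12 leading genes of the Ltf-type were higher in the third band than in the lowest in both mice, and all 11 of the Cck-type lower, although both bands lie within the Cck-type. The leading genes were picked by their differences along the same gate in the same cells, so this order was partly set in advance. From the lowest to the fifth band, 10 of the 12 Ltf-type leaders and 7 of the 11 Cck-type leaders changed step by step in both mice. With the highest band, which held 42 and 34 cells, included, 3 of the 12 (Crip1, Wfdc18 and Lgals3) and 4 of the 11 (Trf, Dusp5, Scnn1b and, by under the last printed digit in mouse 1, Lipa) did. Fxyd2 was an exception, at 148 CPM in the fourth band and 22.9 CPM in the fifth in mouse 1, and 230 and 175 CPM in mouse 2. The median number of gate UMIs per cell lay between 13 and 55 over the bands, and the part of counting error in these steps was not tested.

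**Figure D3:**
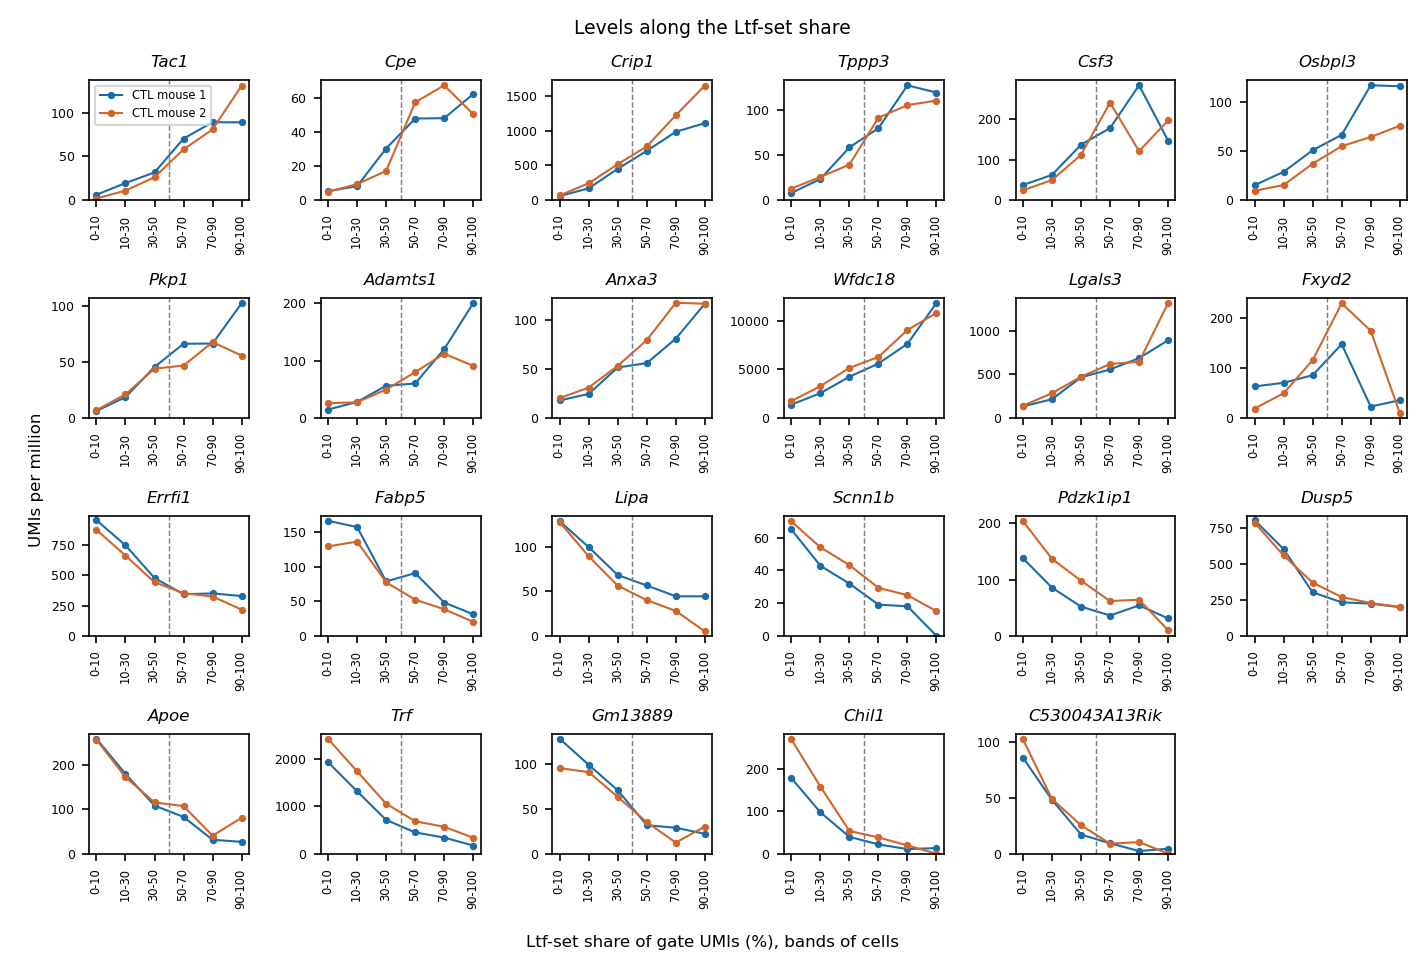
Level (y axis, CPM, UMIs of a gene per 1000000 UMIs of the band) of 12 leading genes of the Ltf-type and 11 of the Cck-type over 6 bands of the share of gate UMIs from the Ltf set (x axis, percent), with a line for each CTL mouse. The dashed line marks the gate, and Crip1 changes at each step, from 58.2 to 1112 CPM in mouse 1, while most of the others turn in some band.

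The promoters of 2 of the lists hold known motifs, shown to let the sequences be seen beside the values. Promoters of 300 bases (RefSeq, GRCm38.p6, around the annotated start) were searched on both strands after the lists' values were seen. The motif TTCNNNGAA, which reads the same on both strands and is the core bound by STAT factors, was in 9.55% of the promoters of 27025 genes and in 4 of 15 matched milk list genes (Csn1s1, Csn1s2a, Csn2 and Glycam1). The kappa-B consensus, bound by NF-kappa-B, was in 6.55% of all and in 6 of 15 matched cytokine list genes (Ccl20, Csf1, Cxcl1, Cxcl10, Cxcl2 and Il6). Glycam1, Ccl20 and Il6 had too few UMIs to be tested, so the genes with a motif include some with no measured difference. The search is a description and shows no binding. Among the leading genes, 6 Ltf-type promoters matched and held neither motif, and of 7 matched Cck-type promoters Chil1 held the kappa-B consensus. Below, capitals mark the STAT motif in 2 casein promoters, of genes higher in Cck-type cells, and the kappa-B consensus in 2 chemokine promoters, of genes higher in Ltf-type cells. They lie at chr5:87699376-87699675 (minus strand, Csn2), chr5:87665958-87666257 (plus strand, Csn1s1), chr5:90890995-90891294 (plus strand, Cxcl1) and chr5:90903649-90903948 (plus strand, Cxcl2).
Csn2: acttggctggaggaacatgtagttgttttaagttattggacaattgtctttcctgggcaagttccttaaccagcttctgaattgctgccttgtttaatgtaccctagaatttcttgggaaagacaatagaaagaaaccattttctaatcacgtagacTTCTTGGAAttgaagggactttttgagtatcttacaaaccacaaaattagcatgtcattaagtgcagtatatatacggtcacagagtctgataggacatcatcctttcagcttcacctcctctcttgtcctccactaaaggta
Csn1s1: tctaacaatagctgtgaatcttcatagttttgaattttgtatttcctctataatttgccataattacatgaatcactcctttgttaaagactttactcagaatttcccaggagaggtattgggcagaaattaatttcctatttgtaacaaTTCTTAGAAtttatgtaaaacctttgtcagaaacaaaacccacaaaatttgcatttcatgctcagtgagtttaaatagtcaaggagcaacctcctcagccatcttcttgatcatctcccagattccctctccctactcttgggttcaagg
Cxcl1: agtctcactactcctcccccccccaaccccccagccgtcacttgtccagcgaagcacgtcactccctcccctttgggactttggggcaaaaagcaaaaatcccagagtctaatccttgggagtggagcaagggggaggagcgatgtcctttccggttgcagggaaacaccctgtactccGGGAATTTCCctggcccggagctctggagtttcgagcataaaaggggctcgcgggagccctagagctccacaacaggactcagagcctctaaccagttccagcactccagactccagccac
Cxcl2: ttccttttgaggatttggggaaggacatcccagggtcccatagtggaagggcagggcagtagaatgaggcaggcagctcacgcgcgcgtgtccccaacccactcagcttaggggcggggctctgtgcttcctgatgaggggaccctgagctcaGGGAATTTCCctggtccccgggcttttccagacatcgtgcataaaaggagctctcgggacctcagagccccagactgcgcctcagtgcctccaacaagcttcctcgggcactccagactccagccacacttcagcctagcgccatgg

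The gate did not carry over to LATS1/2-KO glands. There the progenitor gate held 2772 and 2697 cells in replicates 1 and 2, with a median of 2 and 3 gate UMIs per cell against 34 and 48 in CTL mice 1 and 2. Cck was at 0.769 and 0.657 CPM in those cells and Ltf at 173 and 133 CPM. Of them, 896 and 713 had equal sums, of which 763 and 564 had no gate UMI, so few gate UMIs lay behind the types of the rest. Genes outside the gate also had other levels there, such as Crip1 at 4907 and 3598 CPM and Trf at 193 and 366 CPM. This comparison between genotypes was not tested here.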

How the data were processed

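Single-cell RNA of 4 libraries was measured by 10x 3' v3 chemistry. The files hold counts of UMIs for each gene in each barcode, as deposited. The authors used Cell Ranger, whose version is 6.1.2 in the file headers and 3.1.0 in their processing notes with mm10. No normalization had been applied. Gates followed the rule given in the report, and members and lists were chosen with earlier results of these data known. Counts of the 2 CTL mice were summed per mouse and type. edgeR 4.0.16 (R 4.3.3) fitted mouse and type by glmQLFit on genes passing filterByExpr, with TMM factors from all genes but the 8 gate genes. Benjamini-Hochberg adjustment ran over 12100 genes, with an adjusted p under 0.05 called. Fold changes are fitted, and each SE is approximate, the fold change divided by the square root of the F statistic. The 4 sums held between 2540069 and 26503501 UMIs. The test was also run on simulated counts with a preset spread, in which abundant genes changed by at least 2-fold. Smaller differences were not checked in this way.

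Named were the 12 largest fold changes in each direction among called genes that differed alike in both mice and reached 50 CPM in the higher type. From each list up to 3 called genes in each direction with at least 10 CPM were taken, so most of the 105 named genes come from lists, and examples are described. A few genes that met these rules are not reported. Immune cells for free RNA had at least 3 UMIs of immune markers. Possible doublets were the 5% of cells with most UMIs and cells with 2 or more UMIs of basal, fibroblast, endothelial or immune markers. Markers of hormone-sensing cells were not counted in this filter. DESeq2 1.42.0 and other alternatives are given at the end. Positions are from GENCODE M21. Counting intervals are exact binomial.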

Additional observations from a re-analysis of the deposited data

How the results depend on the processing

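Counts of called genes depended on the test and on the gate. Counts are given as higher in Ltf-type and higher in Cck-type, then both at 2-fold or more. They were 192, 149, 78 and 41 with DESeq2, 330, 348, 119 and 80 with no low-count filter, and 128, 97, 70 and 42 with no replicate block. Cells thinned to 2000 UMIs gave 200, 148, 89 and 50, and a gate margin 173, 107, 116 and 56. A gate without Ltf and Cck gave 216 and 169, and 59 at 2-fold or more in Cck-type cells. Hormone-sensing cells as an added class gave 236, 200, 94 and 62. Sums thinned to the smallest gave 122 at 2-fold or more in Ltf-type cells. Of the alternatives chosen after seeing the data, the gate without Igfbp5 gave 847 genes higher in Cck-type cells and 76 at 2-fold or more. The others so chosen were a gate on Ltf against Cck alone and edgeR's legacy quasi-likelihood fit, which was run before the default fit and gave 679 and 630 genes, and with these no count moved by over 1.5 times. The cause of these shifts was not tested.

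The Ltf-type share of 10.9% was 5.41% with the gate without Ltf and Cck, 44.3% without Igfbp5, 29.0% on Ltf against Cck alone, 13.3% on the log scale, 5.37% with the margin and 12.3% in thinned cells. Leaving out either mouse gave 10.4% to 11.4%. With 1 mouse left the fit has no residual degrees of freedom, so no count of calls was made.

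Of the 105 named genes, all kept their direction with RLE factors, DESeq2, no filter, no replicate block, thinned sums, a mitochondrial limit of 10%, the added class and the legacy fit. Log2 fold changes reversed in thinned cells for Ly6a (0.00), Erbb2 (-0.01), Elovl6 (0.00), Acta2 (0.88) and Dcn (0.01). With the margin they reversed for Scd2 (-0.04), Gpx3 (-0.20), Socs3 (-0.02) and Slc12a2 (-0.11), and among cells with 0 UMIs of Esr1, Foxa1, Pgr and Cited1 for Scd2 (-0.18). Without Ltf and Cck in the gate they reversed for B2m (0.01), Mt1 (0.08) and Dcn (0.97), and without Igfbp5 for Hk2 (0.01) and Dcn (0.98). With possible doublets removed Acta2 was at 0.01 and Dcn at 0.03, on the log scale gate Acta2 at 0.63, and with Ltf against Cck alone Dcn at 1.26. Calls of named genes were lost, with the direction kept, for 38 with DESeq2, 60 with no replicate block, 37 in thinned cells, 41 with the margin, 40 without Ltf and Cck in the gate, 34 with the added class and at most 15 in each other setting. The cause was not tested.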
